A study of Homo sapiens with 8 samples.

Results

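The 32 intermediate filament genes described here are the epithelial keratins, the vimentin-type, neuronal and nestin-type genes, and the lamins. They were chosen by gene symbol, under a rule that uses no measured value, out of 58202 Ensembl identifiers per library. All 32 symbols were found, and for KRT20, KRT23 and SYNM, each listed with 2 identifiers, the one with the higher mean was used. RNA sequencing had been performed on 8 human cancer cell lines that express the receptor tyrosine kinase ERBB4, with 1 library per line. The series was designed around the kinase inhibitor ibrutinib, but the labels do not say which lines respond, so response was neither compared nor inferred. The labels name no drug given to the cultures sequenced, which had grown for 48 hours in plates.

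Of the lung lines, H522 came from a non-small cell cancer (passages 4 to 7), H661 from a large cell cancer (4 to 9) and H146 from a small cell cancer (4 to 8). The endometrial lines were KLE from an adenocarcinoma (3 to 6) and HEC59 from a carcinoma (5 to 10). H716 came from a colorectal adenocarcinoma of the cecum (4 to 8), 1321N1 was a glial line from a brain astrocytoma (4 to 8) and COV318 came from an epithelial serous carcinoma of the ovary (9 to 15). Because lines of 1 tissue come from different tumours, a p-value here reads the spread from line to line and not that of repeat cultures. A line's own values have no replicate, and the order of lines for a gene is that of single libraries.

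Intermediate filaments are rope-like polymers that give cells and nuclei mechanical strength. Keratins assemble only as pairs of a type I and a type II chain, and KRT8 with KRT18 is the pair of simple, single-layered epithelia. Vimentin is the filament of mesenchymal cells, peripherin, alpha-internexin and the neurofilament chains are those of neurons, and the lamins line the inner face of the nuclear envelope. Because the classes are tied to cell lineage, pathologists use them to tell the origin of tumours.

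Levels are in FPKM (fragments per length of transcript and per total of mapped fragments), which allows genes of different length to be set side by side, and tests used log2(FPKM + 1). Between 12205 and 13300 genes per library reached an FPKM of 1. In KLE, 1321N1 and HEC59, 1 value each was above 100000, and with it the summed FPKM was 2.45e+06, 1.38e+06 and 846097. Without it the sums were 482065, 511451 and 397053. Mitochondrial genes took 4.37% to 16.1% of a library's summed FPKM, with values above 100000 left out. Absolute depth is unknown. Relative depth, read from the steps between low values, ran from 1 in KLE to 2.69 in 1321N1. Clustering on the same steps, with the number of sets fixed at 2, gave a set of H522, H661, KLE and H716 and a set of 1321N1, HEC59, COV318 and H146. The division was not sharp. The share of low values at a common ratio was 17.7% for KLE with COV318, across the sets, and 15.6% for H522 with KLE, within the first. The first set holds 2 lung lines and the second 1, and each holds 1 endometrial line.

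A few promoters are shown as examples. VIM was the leading cytoplasmic filament gene in most lines. INA, PRPH and KRT8 had their own highest values in the lung lines, H716 and KLE, where another filament gene could be higher. They are drawn from the 13 filament genes with a RefSeq window, which do not include KRT18 or KRT19. Each run is the 250 bases before a RefSeq start of the gene on GRCh38.p14, read 5′ to 3′ on the gene's strand, with motif matches in capitals. VIM lies at chr10:17227991-17228240 (plus strand), INA at chr10:103276888-103277137 (plus), PRPH at chr12:49294897-49295146 (plus) and KRT8 at chr12:52926470-52926719 (minus).
VIM: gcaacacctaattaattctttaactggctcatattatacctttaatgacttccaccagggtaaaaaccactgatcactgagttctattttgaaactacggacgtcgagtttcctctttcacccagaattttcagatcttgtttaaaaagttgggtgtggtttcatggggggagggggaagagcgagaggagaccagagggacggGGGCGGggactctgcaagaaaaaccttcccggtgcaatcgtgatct
INA: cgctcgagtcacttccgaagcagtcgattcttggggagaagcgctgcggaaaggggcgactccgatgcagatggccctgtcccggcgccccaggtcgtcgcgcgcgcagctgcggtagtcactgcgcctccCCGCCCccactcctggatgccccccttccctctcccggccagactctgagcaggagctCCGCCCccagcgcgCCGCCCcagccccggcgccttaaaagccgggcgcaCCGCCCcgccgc
PRPH: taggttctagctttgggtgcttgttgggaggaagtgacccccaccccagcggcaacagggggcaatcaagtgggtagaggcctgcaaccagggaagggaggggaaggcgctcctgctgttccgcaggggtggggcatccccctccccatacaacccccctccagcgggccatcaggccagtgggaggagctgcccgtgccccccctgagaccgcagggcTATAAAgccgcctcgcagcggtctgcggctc
KRT8: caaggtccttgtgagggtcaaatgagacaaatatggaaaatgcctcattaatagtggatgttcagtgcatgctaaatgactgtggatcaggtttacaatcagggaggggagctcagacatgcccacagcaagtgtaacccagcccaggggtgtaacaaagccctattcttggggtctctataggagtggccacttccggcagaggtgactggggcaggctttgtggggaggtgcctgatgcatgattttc
The motifs searched on both strands were the TATA box TATAAA, the GC box GGGCGG, the E-box CAGGTG and the AP-1 site TGANTCA, and a match on the minus strand shows as its complement. The VIM window held 1 GC box, the INA window 4, the PRPH window a TATA box at 31 bases before the start, and the KRT8 window no match to these letters. Among all 34788 promoter windows of this length, 10.8% held the TATA box, 42.6% the GC box, 17.5% the E-box and 6.59% the AP-1 site. Of these 13 genes, 2 held the TATA box (PRPH and KRT10), 7 the GC box, 3 the E-box and 0 the AP-1 site. The genes have 16 windows and count if any window matches, so their counts are not in the unit of the percentages. The bases after the start were found in a GENCODE v29 transcript of the gene for PRPH and KRT8, and not for VIM or INA. A match is a description of the letters and not a site of binding.

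With detection set at an FPKM of 1, 23 of the 32 genes were found in some line and 4 in all 8 lines, namely KRT18 and the lamin genes LMNA, LMNB1 and LMNB2. KLE held the most, with 16, followed by 1321N1 with 14 and H146 with 13. HEC59 held 12 and COV318 11, and H522, H661 and H716 held 9 each. KLE reached this level for 10 of the 19 keratins and H661 for 1, KRT18.

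**Figure D1:**
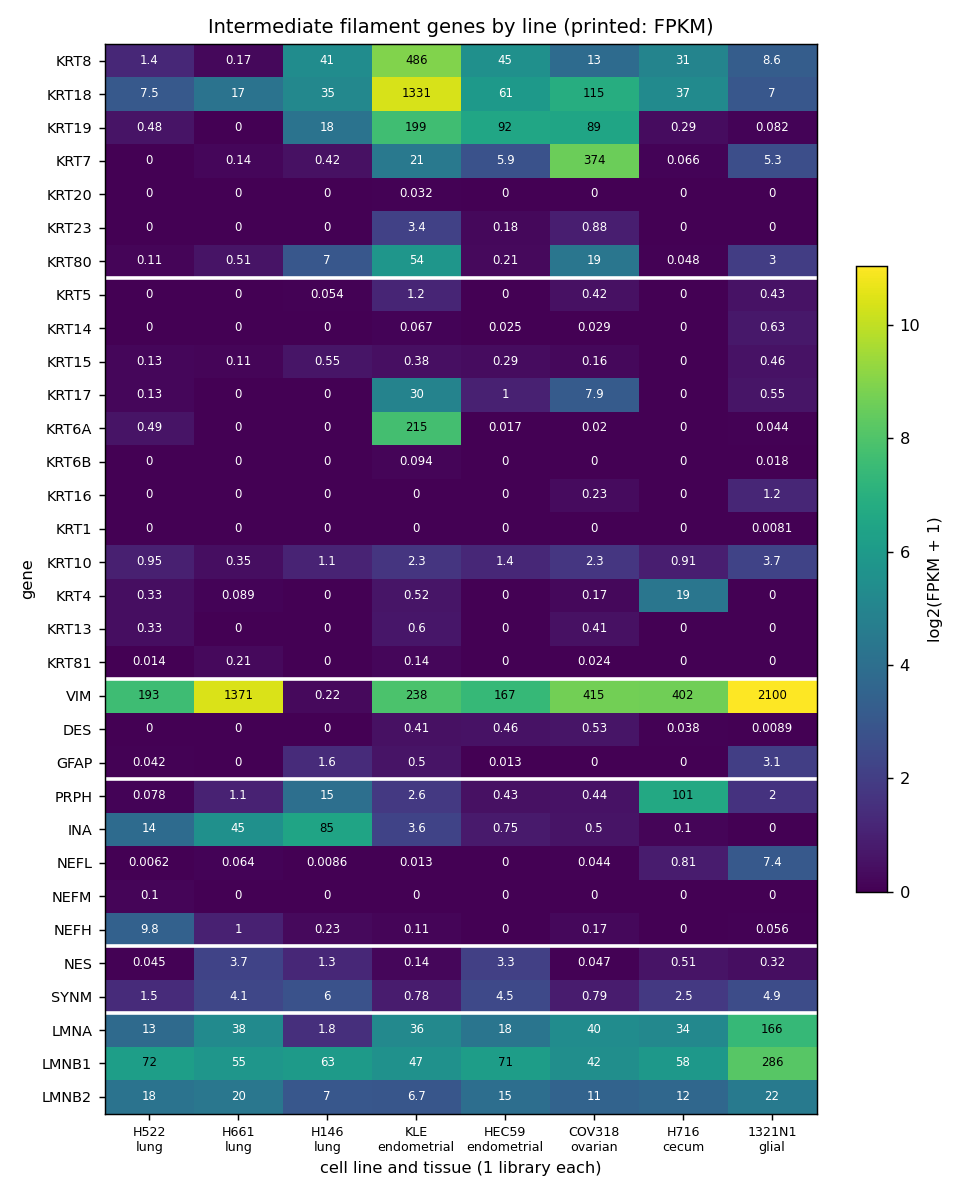
FPKM of the 32 intermediate filament genes (rows, printed in each cell) in the 8 lines (columns, 1 library each), coloured by log2(FPKM + 1), with white lines between the classes. KRT8 and KRT18 peaked in KLE at 486 and 1331, VIM was high in 7 lines and 0.219 in H146, and INA was 13.7 or more only in the lung lines.

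The summed FPKM of the 29 cytoplasmic filament genes was divided by class to describe the makeup of each line. Keratins dominated in KLE, with 90.5% keratin and 9.23% vimentin-type RNA. COV318 and HEC59 were mixed, at 59.9% and 54.0% keratin with 39.9% and 43.6% vimentin-type RNA. In 1321N1, H661 and H522 vimentin-type RNA made up 97.9%, 94.9% and 83.9%, and in H716 67.5%. H146 stood apart in its makeup, with 48.3% keratin, 47.4% neuronal filament RNA and 0.842% vimentin-type RNA. Neuronal filament RNA also took 17.1% in H716, 10.3% in H522 and 3.29% in H661, and 0.439% or less in the other 4 lines. The sums themselves differed, from 212 in H146 and 230.1 in H522 to 2149 in 1321N1 and 2591 in KLE, so equal shares do not mean equal levels.

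**Figure D2:**
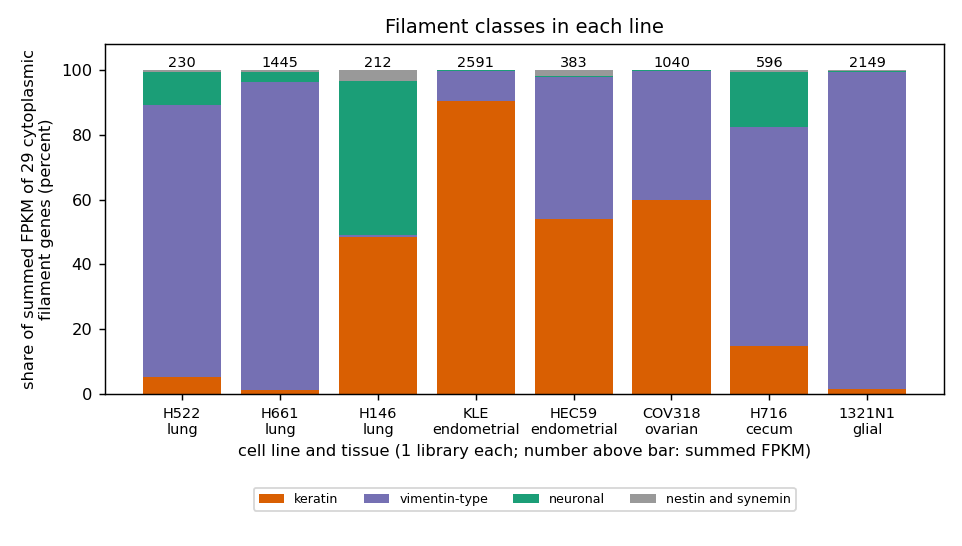
Share of the summed FPKM of the 29 cytoplasmic filament genes taken by keratins, vimentin-type, neuronal and nestin-type genes (stacked bars, percent), in each of the 8 lines, with the sum printed above each bar. Keratins lead in KLE (90.5%), vimentin-type genes in 1321N1 (97.9%), and H146 is divided between keratins (48.3%) and neuronal genes (47.4%).

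Marker lists from textbook knowledge were read beside these classes. Of 12 epithelial markers, the number at an FPKM of 1 or more was 12 in H146, 10 in HEC59, 8 in KLE, 5 in COV318, 4 in H716, 3 each in H522 and H661, and 0 in 1321N1, where 4 of them were listed at 0. Of 12 mesenchymal markers, 1321N1 had 12, H661, KLE and COV318 9 each, H522 7, H146 and HEC59 6 each and H716 2. Of 12 neuroendocrine markers, H146 had 11 and H716 8, and each other line had 1. The summed FPKM of the neuroendocrine list was 809 in H146 and 542 in H716, against 3.74 to 19.0 in the other lines. Of 8 glial markers, 1321N1, labelled glial, had 1, which was GFAP itself. KLE and H146 had 2 each, H661 and COV318 1 each, and H522, H716 and HEC59 0. Of 6 markers each, no line had more than 1 immune, 1 muscle or 3 endothelial ones at this level. Their part in the filament levels was not tested, and in bulk libraries fewer cells with a transcript and less of it per cell cannot be told apart.

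Among the keratins of simple epithelia, KRT8, the type II chain of the pair, had an FPKM of 486 in KLE, 45.2 in HEC59, 40.8 in H146, 30.6 in H716, 13.3 in COV318, 8.64 in 1321N1, 1.36 in H522 and 0.165 in H661. KRT18, its type I partner, had 1331 in KLE, 115 in COV318, 61.1 in HEC59, 37.5 in H716, 34.9 in H146, 17.2 in H661, 7.48 in H522 and 7.01 in 1321N1. KLE was far above every other line in both genes, and H522 and H661 were low in KRT8 while still holding KRT18. The partners were thus unequal in some lines: the ratio of KRT18 to KRT8 lay between 0.812 and 2.74 in 1321N1, H146, H716, HEC59 and KLE, but was 5.49 in H522, 8.64 in COV318 and 104 in H661. Pseudogenes limit the low end of these values. The 44 listed KRT8 pseudogenes summed to 5.91 in H522 and 2.40 in H661, above KRT8 itself, and to less than KRT8 in the other 6 lines. The 43 KRT18 pseudogenes summed to 0.585 to 2.54, below KRT18 in every line.

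KRT8 and KRT18 are neighbours on chromosome 12, with 0 protein-coding genes between them in GENCODE v29, and KRT18 is the single type I keratin of the 10 studied that is not on chromosome 17. Their annotated transcripts overlap on opposite strands, and use of strand in counting was not stated in the sources used here, so reads of the overlap cannot be told apart.

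KRT19, a type I keratin of ductal and simple epithelia, had an FPKM of 199 in KLE, 91.6 in HEC59, 89.3 in COV318 and 17.6 in H146. It had 0.483 in H522, 0.288 in H716 and 0.0819 in 1321N1 and was listed at 0 in H661, so the lines fell into 4 with and 4 nearly without this gene. KRT7, the type II keratin of ducts and of the female genital tract, had 374 in COV318, where it made up 60.0% of all keratin RNA. It had 20.9 in KLE, 5.86 in HEC59 and 5.34 in 1321N1, at most 0.422 in H146, H661 and H716, and was listed at 0 in H522. A transcript overlapping KRT7 on the opposite strand, RP3-416H24.1, was also highest in COV318, at 7.99, and at 0.501 or less elsewhere. KRT80, a type II keratin found in many epithelia, had 54.1 in KLE, 18.9 in COV318, 6.95 in H146 and 2.95 in 1321N1, and 0.509 in H661, 0.210 in HEC59, 0.114 in H522 and 0.0481 in H716. The intestinal keratin KRT20 was at 0.0320 in KLE and at 0 in the other 7 lines, H716 from the cecum included. KRT23 was at 3.36 in KLE, 0.876 in COV318 and 0.181 in HEC59, and at 0 in the other 5.

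The keratins of stratified epithelia were low apart from single lines. KRT6A, an inducible type II keratin of wounded and hyperproliferative epidermis, had an FPKM of 215 in KLE, 9.16% of that line's keratin RNA, and 0.487 in H522. It had 0.0438 in 1321N1, 0.0172 in HEC59 and 0.01995 in COV318, and was listed at 0 in H661, H716 and H146. KRT17, a type I keratin of basal and appendage epithelium, had 29.9 in KLE, 7.94 in COV318, 1.01 in HEC59, 0.551 in 1321N1 and 0.132 in H522 and was at 0 in H661, H716 and H146. Both peaked in KLE, whereas KRT16, the usual type I partner of KRT6A, was listed at 0 there and reached 1.24 in 1321N1. KRT6A and KRT6B are near-identical, with 97.5% identity between their longest open reading frames in GENCODE v29 transcripts, against a median of 58.5% over the 81 keratin pairs of the same type. KRT6B had 0.0940 in KLE, and how reads shared by the pair were assigned is uncertain.

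KRT4, a type II keratin of mucosal stratified epithelium, had 18.9 in H716, 0.522 in KLE, 0.333 in H522, 0.166 in COV318 and 0.0888 in H661, and 0 in the other 3 lines. KRT13, its usual type I partner, was at 0 in H716 and at most 0.595, in KLE. KRT10, a type I keratin of differentiating epidermis, lay between 0.347 in H661 and 3.67 in 1321N1, without its partner KRT1, whose highest value was 0.00815. TMEM99 overlaps KRT10 on the opposite strand and was higher than KRT10 in every line, at 1.03 to 15.6. The basal keratins KRT5, KRT14 and KRT15 reached at most 1.19, 0.634 and 0.549, and the hair keratin KRT81 0.210. Of 8 squamous or basal markers, KLE had 4 at an FPKM of 1 or more and 1321N1 and H146 3 each. H661 and COV318 had 2 each, HEC59 1, and H522 and H716 0. TP63, the transcription factor of basal cells, was at 11.3 in H661, 7.15 in H146, 4.18 in 1321N1 and 1.90 in KLE.

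Vimentin was the leading cytoplasmic filament gene in 6 of the 8 lines. VIM had an FPKM of 2100.3 in 1321N1, 1371 in H661, 415 in COV318, 402 in H716, 238 in KLE, 193 in H522 and 167 in HEC59. In H146 it was 0.219, below an FPKM of 1 while every other line was above 100. RP11-124N14.3, which overlaps VIM on the opposite strand, had 96.7 in 1321N1, 73.6 in H661 and 0.0717 in H146, and these reads cannot be told apart from those of VIM without strand. GFAP, the filament of astrocytes, had 3.10 in 1321N1, 1.57 in H146 and 0.502 in KLE, and 0.0422 or less in the other lines. CCDC103 overlaps GFAP on the opposite strand and had 0.640 or less. DES, the muscle filament, did not exceed 0.527.

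Neuronal filament genes differed in which line held them. INA, which encodes alpha-internexin, had an FPKM of 85.0 in H146, 45.4 in H661 and 13.7 in H522, against 3.60 in KLE, 0.745 in HEC59, 0.501 in COV318, 0.101 in H716 and 0 in 1321N1. The 3 lung lines were the 3 highest. PRPH, which encodes peripherin of peripheral neurons, had 101.2 in H716, 15.3 in H146, 2.56 in KLE, 2.02 in 1321N1, 1.08 in H661, 0.442 in COV318, 0.427 in HEC59 and 0.0779 in H522. Its 2 highest lines were those with the most neuroendocrine markers, whereas H661 and H522, high in INA, had 1 of the 12 markers each. Of the neurofilament chains, NEFL reached 7.36 in 1321N1 and 0.808 in H716, NEFH 9.78 in H522 and 0.999 in H661, and both were at 0.232 or less elsewhere. NEFM was at 0.103 in H522 and at 0 in the other 7 lines, so no line had all 3 chains of a neurofilament at an FPKM of 1.

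NES, which encodes nestin of neural and other progenitors, lay between 0.0451 in H522 and 3.66 in H661, with 3.25 in HEC59 and 1.35 in H146. SYNM, which encodes synemin, lay between 0.780 in KLE and 5.96 in H146. RP11-6O2.4 overlaps SYNM on the opposite strand and had 0.397 to 4.68.

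The lamins were present in every line. LMNB1, a B-type lamin, had an FPKM of 286 in 1321N1, 72.5 in H522, 70.5 in HEC59, 62.8 in H146, 57.7 in H716, 54.9 in H661, 46.7 in KLE and 42.5 in COV318. LMNB2, the other B-type lamin, had 21.6 in 1321N1, 19.8 in H661, 17.6 in H522, 14.8 in HEC59, 11.9 in H716, 10.6 in COV318, 6.98 in H146 and 6.74 in KLE. TIMM13 overlaps LMNB2 on the same strand and had 12.3 to 45.2, above LMNB2 in 7 of the 8 lines, so the reads of the overlap are uncertain. Apart from 1321N1, LMNB1 stayed between 42.5 and 72.5. LMNA, which encodes the A-type lamins of differentiated and stiff tissues, varied more, with 166 in 1321N1, 39.9 in COV318, 38.1 in H661, 35.7 in KLE, 34.4 in H716, 18.3 in HEC59, 13.2 in H522 and 1.81 in H146. LMNA thus made up 2.53% of lamin RNA in H146, 12.8% in H522 and 17.7% in HEC59, and 33.1% to 42.9% in the other 5 lines.

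**Figure D3:**
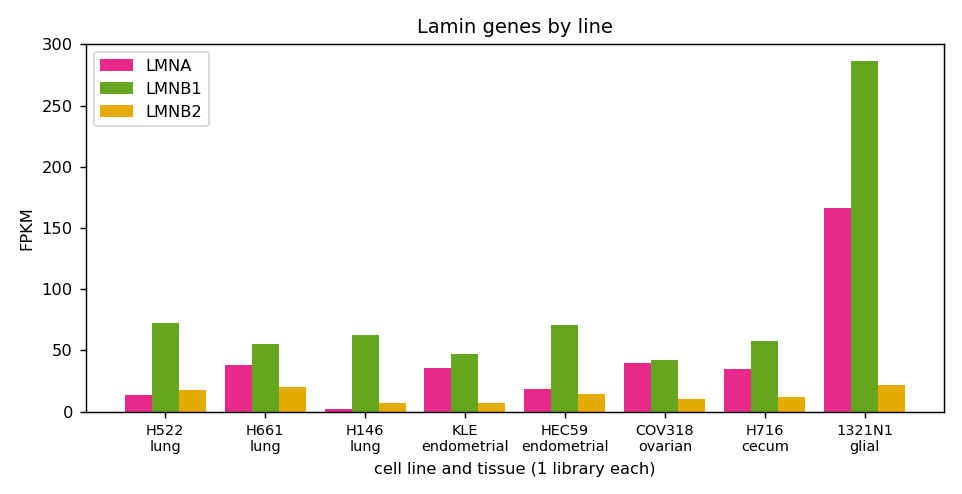
FPKM of LMNA, LMNB1 and LMNB2 (bars from 0) in the 8 lines, 1 library each. LMNA is 1.81 in H146 beside 62.8 for LMNB1, and both are highest in 1321N1, at 166 and 286.

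Grouped by the tissue in the labels, the lung lines were set against the other 5 lines. INA was the filament gene that stood out, with a mean log2(FPKM + 1) of 5.28 ± 1.30 (SD, n = 3) for lung and 0.75 ± 0.88 (SD, n = 5) for the other lines. The difference was 4.53 (SE 0.68, limma adjusted p = 0.0893), rank 12 of 15650 genes by p, and it did not pass the threshold of 0.05. All 3 lung lines were above every other line in INA, the 1 of the 16 filament genes tested with no overlap and a higher level, where 2.07% of all genes tested were higher without overlap. None of the 16 was lower without overlap, against 2.23% of all genes. By limma's adjusted p, 0 of the 16 passed, against 0.0256% of all genes (4 genes), and at an unadjusted p under 0.05 there were 2, INA and KRT7, against 5.94%. The 16 genes are those that reached an FPKM of 1 in 2 lines or more, a filter that a gene high in the compared lines alone can pass. INA is such a gene, since of the other lines only KLE reached an FPKM of 1, and its adjusted p was 0.261 without the filter. Of the neuroendocrine markers, 8 were tested, 6 had a higher mean in the lung lines and none passed. Among the lung lines the list was high in H146 alone, with a summed FPKM of 809 against 4.40 in H522 and 3.90 in H661. The part of these markers in the INA difference was not tested.

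Keratins had lower means in the lung lines, and no keratin passed the test. Without the filter, 18 of the 19 keratins had a lower lung mean, with a median difference of -0.65, against a median of -0.000957 over all 35156 genes above 0. This count includes genes near 0 in every line, such as KRT20, KRT1 and KRT6B, at no more than 0.0320, 0.00815 and 0.0940. Their direction comes only from traces outside the lung lines. Over all 32 filament genes 25 were lower, with a median of -0.32. KRT7 had a difference of -3.47 (SE 1.52, limma adjusted p = 0.821), KRT8 of -3.03 (SE 1.42, adjusted p = 0.822), KRT19 of -2.64 (adjusted p = 0.879) and KRT18 of -2.15 (adjusted p = 0.870). H146 was unlike the other lung lines in these genes, with KRT8 at 40.8 and KRT19 at 17.6. VIM and LMNA differed by -2.63 (adjusted p = 0.878) and -1.93 (adjusted p = 0.821), with H146 the lowest of all lines in both. Single lines decided the size of several of these values. Without H146 the difference was 0.27 for VIM, -0.91 for LMNA and -4.58 for KRT8. Without H661 it was -4.79 for VIM and -2.00 for KRT8, without KLE -1.13 for KRT18, and without COV318 -2.26 for KRT7.

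The endometrial lines were compared with the other 6 lines in the same way. KRT8 and KRT19 were higher in both endometrial lines than in any other line, 2 of the 16 genes tested, where 2.43% of all genes were higher without overlap. No filament gene was lower without overlap, against 4.53% of all genes. KRT19 had a mean of 7.09 ± 0.79 (SD, n = 2) against 1.96 ± 2.74 (SD, n = 6), a difference of 5.13 (SE 1.67, limma adjusted p = 0.822). KRT8 differed by 4.07 (SE 1.41, adjusted p = 0.852), KRT18 by 3.57 (SE 1.24, adjusted p = 0.857) and KRT17 by 2.32 (SE 1.10, adjusted p = 0.954). KLE carried much of the differences of KRT8, KRT18 and KRT17, which without it were 2.37, 1.36 and 0.35. That of KRT19 was 4.57 without KLE. Without HEC59 the differences were 5.79 for KRT18 and 4.29 for KRT17. By limma's adjusted p 0 of the 16 passed, against 0.00639% of all genes (1 gene), and at an unadjusted p under 0.05 there were 3, KRT8, KRT18 and KRT19, against 4.82%. The margins of the non-overlapping genes were narrow, since HEC59 was at 45.2 for KRT8 beside 40.8 in H146, and at 91.6 for KRT19 beside 89.3 in COV318. Without the filter 15 of the 19 keratins had a higher endometrial mean, with a median difference of 0.24, against -0.03 over all genes. This count too includes genes near 0 in every line, such as KRT20 and KRT6B. The 32 filament genes together had a median of 0.03, with 17 higher and 15 lower.

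**Figure D4:**
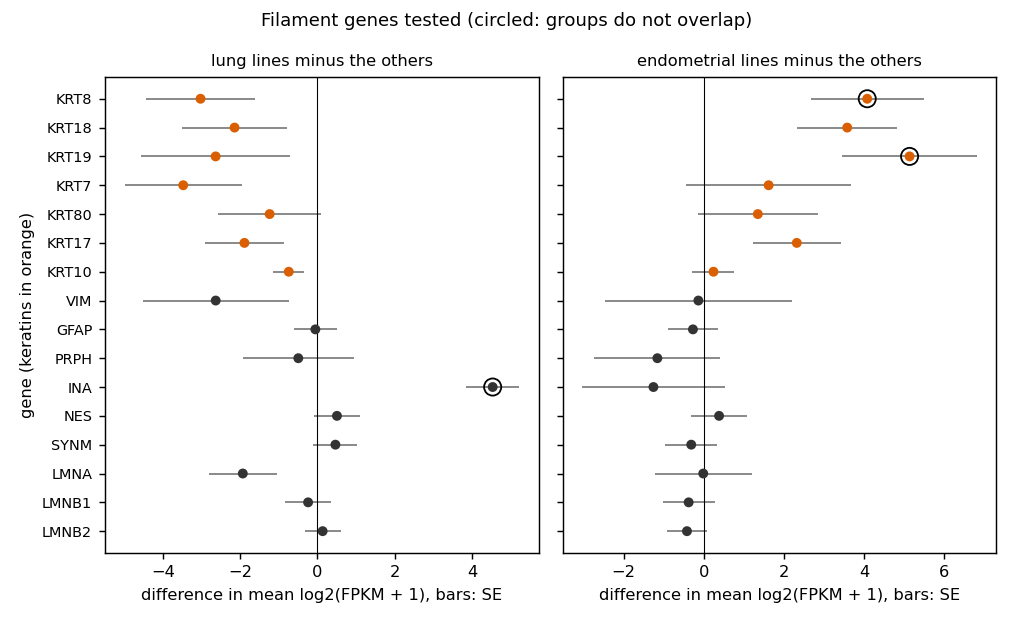
Difference in mean log2(FPKM + 1) with its SE (bars) for the 16 filament genes tested, for lung lines (3 against 5) and endometrial lines (2 against 6), with keratins in orange and a circle where the groups do not overlap. INA is 4.53 higher in the lung lines and KRT8 and KRT19 are 4.07 and 5.13 higher in the endometrial lines, and none passed limma's adjusted test.

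Filament partners were read from lists. Plakins and desmosomal genes tie keratin filaments to cell junctions. None of the 8 tested of 12 listed passed limma's adjusted test in either comparison. All 8 had a higher mean in the endometrial lines, with a median difference of 1.42 against -0.11 over all genes tested. DSP, which encodes desmoplakin, had an FPKM of 98.4 in KLE, 72.8 in HEC59 and 59.7 in H146, then 38.9 in H522, 38.1 in COV318 and 30.8 in H716, and was low in H661 (4.09) and 1321N1 (0.0461). It was above every other line in both endometrial lines (2.43, SE 1.398, adjusted p = 0.954). Of 11 epithelial markers tested, 10 had a higher endometrial mean and 0 passed limma's adjusted test. Those higher in both endometrial lines than in any other, where 2.43% of all genes were, were CDH1, CLDN3 and CLDN4, which encode epithelial junction proteins. They differed by 4.77, 2.43 and 2.79 (limma adjusted p = 0.583, 0.954 and 0.687). Their margins were narrow. HEC59 was at 33.1 for CDH1 and 22.7 for CLDN3, beside 26.1 and 20.5 in H146. For CLDN4, KLE was at 7.27 beside 6.14 in H716. Of 11 mesenchymal markers tested, 6 had a higher mean and 5 a lower one. THY1, a cell surface glycoprotein, was lower in both endometrial lines than elsewhere (-2.47, limma adjusted p = 0.954), where 4.53% of all genes were. The margin was narrow and below detection, with 0.176 in KLE and 0.185 in HEC59 beside 0.233 in H716. In 1321N1 the desmosomal gene JUP was also near absent, at 0.0474.

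In the lung lines PLEC, which encodes the cross-linker plectin, was below every other line (-1.52, SE 0.64, limma adjusted p = 0.821), where 2.23% of all genes were. The margin was narrow, with 2.97 in H661 beside 3.32 in COV318. Of the 8 plakin and desmosomal genes tested, 2 had a higher lung mean and 6 a lower one. Of 14 genes tested of the lamina and nuclear envelope, such as LBR and EMD, 6 were higher and 8 lower in the lung lines and 5 higher and 9 lower in the endometrial lines, and none passed. RCE1, a protease that processes prenylated proteins, was lower in both endometrial lines than elsewhere (-0.81, SE 0.45, limma adjusted p = 0.954), where 4.53% of all genes were. The difference was -0.39 without KLE and -1.23 without HEC59, and HEC59, at 2.98, lay just below 1321N1, at 3.21. Among 12 kinases and adaptors of filaments, 9 were higher in the lung lines and 3 in the endometrial lines, none past the threshold. There TRIM2, a ubiquitin ligase that binds neurofilament light chain, was higher in both endometrial lines than in any other (2.41, SE 0.79, limma adjusted p = 0.814). CDK5, a neuronal kinase of neurofilaments, was lower in both (-1.50, SE 0.47, limma adjusted p = 0.739). Of all genes tested, 2.43% were higher and 4.53% lower in this way.

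Of the 10 relations between filament genes set out for correlation across the 8 lines, 7 were computed, since NEFL with NEFM, NEFM with INA and NEFH with INA each held a gene that reached an FPKM of 1 in no more than 1 line. VIM and LMNA moved together most closely, with r = 0.927 (exact permutation p = 0.000471, adjusted over the 7 relations 0.0033) and rho = 0.929 (exact p = 0.00223, adjusted 0.0156). Once 1321N1 and H146, which lay farthest from VIM's median, were left out, r was 0.665 (exact p = 0.117), so the relation did not pass without both ends of the VIM range. Left out singly, r was 0.950 without 1321N1 and 0.842 without H146 (adjusted exact p = 0.0264 for each). KRT8 and KRT18 had r = 0.822 (exact permutation p = 0.0136, adjusted 0.0475) and rho = 0.738 (exact p = 0.0458, adjusted 0.107). Without KLE and H661, at the ends of the KRT8 range, their r was 0.664 (exact p = 0.160). Of single lines KLE mattered most, with r = 0.597 without it (adjusted exact p = 0.311) and 0.784 without H522 (0.139). Without H661, 1321N1, H146 or HEC59 r was 0.877, 0.852, 0.847 and 0.825, as high as with all lines, although with 7 lines the adjusted exact p lay between 0.0542 and 0.0854. Centred on the mean of each read-step set, r was 0.949 for VIM with LMNA (adjusted exact p = 0.0243) and 0.848 for KRT8 with KRT18 (adjusted exact p = 0.103).

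KRT8 and KRT19 had r = 0.737 (exact permutation p = 0.0317, adjusted 0.0740) and rho = 0.833 (exact p = 0.0154, adjusted 0.0538), and r was 0.506 without KLE and H661. Its adjusted exact p was 0.0468 without H716 and 0.0338 without COV318. The other relations did not pass in either measure. KRT8 with VIM had r = -0.344 (adjusted exact p = 0.451) and rho = -0.571 (adjusted 0.212), so the keratin and vimentin levels were not shown to oppose each other over these lines. VIM with NES had r = -0.102 (adjusted exact p = 0.837) and rho = -0.0476 (adjusted 0.935), LMNA with LMNB1 r = 0.477 (0.334) and rho = -0.238 (0.679), and LMNB1 with LMNB2 r = 0.578 (0.190) and rho = 0.619 (0.201). LMNA with LMNB1 had r = -0.875 without 1321N1 and H146.

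**Figure D5:**
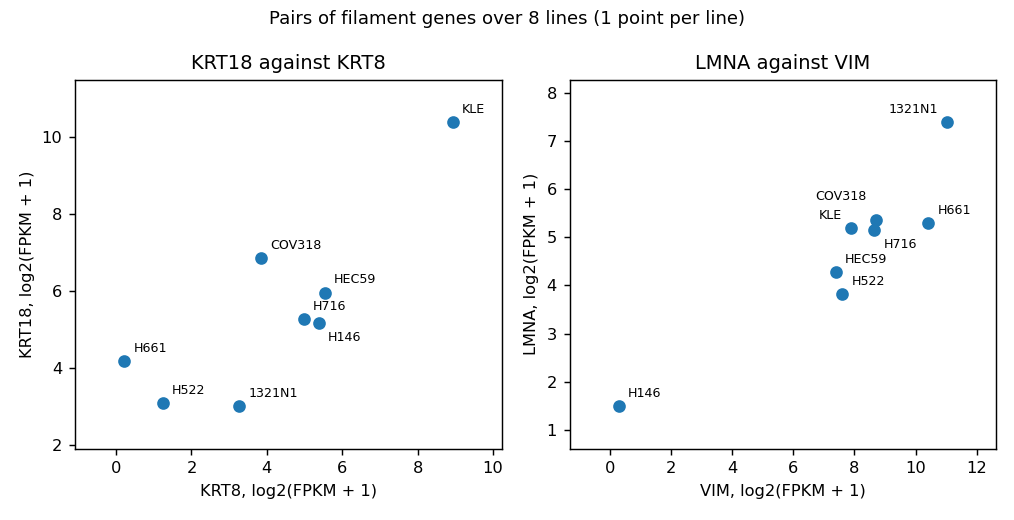
KRT18 against KRT8 and LMNA against VIM, both axes log2(FPKM + 1), 1 point per line. KLE lies far above the other lines in KRT8 and KRT18 (r = 0.822), and H146 and 1321N1 mark the low and the high end of VIM and LMNA (r = 0.927).

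The genes most like a filament gene were taken as those with the highest r over the 8 lines, and all points share the libraries and their depth. For VIM these were SURF4 (r = 0.990), ACO1 (0.974), CRTAP (0.972), the overlapping RP11-124N14.3 (0.967) and PLOD1 (0.966). For KRT8 they were RAB11B-AS1 (0.964), KIAA1804 (0.935), SPATA17 (0.934), MYO5B (0.916) and ZNF776 (0.911). MYO5B had 63.8 in H146, 55.4 in KLE and 23.4 in HEC59 and 0.426 or less in H522 and H661. For INA they were MED12L (0.998), RNF165 (0.985), MEIS3P2 (0.980), ZNF674-AS1 (0.966) and TMEM35 (0.965). MED12L had 21.3 in H146, 17.4 in H661 and 6.59 in H522, and 1.87 or less in the other 5 lines, the order of INA in the lung lines.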

How the data were processed

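The deposited values are FPKM per Ensembl identifier, in 1 table for each of the 8 lines, as the file headers say. TopHat2 2.0.8, CASAVA 1.4, SAMtools 1.0 and build GRCh37 are named in the submitters' processing notes. The program that gave FPKM, its annotation and any use of strand were not stated in the sources used here. The 15650 genes that reached an FPKM of 1 in 2 lines or more were tested as log2(FPKM + 1), which understates differences of low genes, with limma 3.58.1 (R 4.3.3, trended eBayes, Benjamini-Hochberg adjustment over all genes tested, threshold 0.05). The filter kept 16 of the 32 filament genes. The code was tested on simulated data whose spread was capped below the spread over lines of every filament gene tested. That test does not show what differences could be found here. Correlations used exact two-sided permutation tests over 40320 pairings. FPKM holds no counts, so no counting interval is given. The rule for the genes uses symbols alone, but they and the lists were chosen with earlier results of these data known. Genes are named if they belong to the 32, with a value in every line where 1 line reached an FPKM of 10, and listed partners or epithelial markers where groups did not overlap. The squamous or basal markers are named as a whole list. GENCODE v29 (GRCh38) gave overlaps and reading frames, and RefSeq the promoters, for 13 of the 32 genes. MACF1 was not analysed here. The labels' tissue formed the groups, and the alternatives were pseudocounts of 0.1 and 5, other filters, 3 other scalings, the read-step set as a term, and each line left out.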

Additional observations from a re-analysis of the deposited data

How the results depend on the processing

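No filament gene passed limma's adjusted test in either comparison under any of the 17 alternatives. Over all genes the count of calls went from 1 to 16 for the lung lines (16 without H146, 1 without COV318 or without the filter) against 4, and from 1 to 30 for the endometrial lines (30 without COV318, 20 without the filter) against 1. The difference of INA in the lung lines lay between 2.90 and 6.18, with adjusted p from 0.0586 (without H522) to 0.284 (without H661). A change of filter or of the eBayes trend cannot alter a log2 difference, nor can the read-step term in the endometrial comparison. Such unchanged values are included in the 271 recomputed log2 differences of named genes. Of the 271, 1 reversed, that of VIM in the lung lines, which went from -4.79 without H661 to 0.27 without H146. The cause was not tested. Rescaling each line to an equal sum, taken without values above an FPKM of 100000, moved the median lung difference of all genes by 0.17. Upper-quartile scaling moved the median difference by 0.10 in the endometrial comparison. Of the 7 correlations 2 passed, and 1 did with a pseudocount of 0.1 or centred within read-step sets, an alternative chosen after seeing the data. With each line left out, 1 to 3 passed: VIM with LMNA passed throughout, KRT8 with KRT18 missed the threshold without KLE (r = 0.597) or H522 (0.784), and without H661, 1321N1, H146 or HEC59, where r was 0.825 to 0.877, and KRT8 with KRT19 passed without H716 or COV318. With lines left out, the r of LMNA with LMNB1 ran from -0.543 (without 1321N1) to 0.678 (without H146), and that of VIM with NES from -0.415 (without H661) to 0.140 (without H146). Leaving VIM out raised the keratin share of 1321N1 from 1.45% to 63.6%. No paired analysis was possible because the lines carry no shared replicate numbers in the labels. The 1 library per line and the spread between tumours limit every comparison.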

Other observations

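Filament genes outside the 32 were mostly listed at 0. Of the 39 other keratin, beaded filament and syncoilin genes listed, 29 to 36 were listed at 0 in each line and 5 reached an FPKM of 1 in any line. SYNC, which encodes syncoilin, an intermediate filament protein first known from muscle, was the highest of these in every line, at 9.12 in H146 to 22.0 in COV318, while the muscle filament DES did not exceed 0.527. KRT40, a hair type I keratin, reached 7.41 in H716, the line that held KRT4. KRT75, a type II keratin of hair follicles, reached 4.06 in 1321N1 and 3.50 in KLE. KRT222 reached 3.38 in H146 and BFSP1, a lens filament gene, lay between 0.518 in KLE and 2.11 in HEC59.

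DST, a plakin that links filaments to the cytoskeleton and to the membrane, had an FPKM of 1199.9 in HEC59 and 23.6 to 126 in the other 7 lines, a value from a single library. PERP, a desmosomal membrane protein, was highest in 1321N1, at 223, the line in which DSP and JUP were below 0.05.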
